A study of Mus musculus with 12 samples.

Results

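The matrix metalloproteases (MMP), the related ADAMTS proteases and their tissue inhibitors (TIMP) were followed through brown and white fat of mice with 0, 1 or 2 copies of the Ucp1-CreEvdr transgene. Members were taken by name: every row of the gene count table whose symbol begins with Mmp and a digit, or reads Timp or Adamts followed by a number. This gave 46 of the 24541 rows in the table: 23 Mmp, 4 Timp and 19 Adamts genes. Polyadenylated RNA was sequenced from interscapular brown adipose tissue and from inguinal (posterior subcutaneous) white adipose tissue of mice aged 6 weeks, which were bred in house and kept untreated at room temperature on standard chow. In this transgene regulatory sequences of Ucp1, the uncoupling protein of brown fat, drive Cre recombinase. The 6 groups were wild type, 1xUcp1-CreEvdr (1 copy) and 2xUcp1-CreEvdr (2 copies) in each tissue, with 2 libraries per group and 12 in all. The mice were bred from heterozygous carriers, the wild type groups carried no transgene, and the labels name no floxed gene. Whether the paired libraries of a group stem from different mice is not labelled, so the p-values reflect library-to-library spread that may be technical.

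MMPs are zinc-dependent proteases that are made as inactive precursors and cut collagens and other matrix proteins once a propeptide is removed. ADAMTS proteases are secreted relatives that trim procollagens, cleave proteoglycans such as versican and aggrecan, or act on fibrillin microfibrils and von Willebrand factor. TIMPs bind the active site of MMPs and block them, and Timp3 also inhibits several ADAMTS and ADAM proteases. In white fat, collagen cleavage by the membrane-bound protease Mmp14 is known to be needed for adipocytes to enlarge within their matrix.

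Total counts ran from 15679884 to 31814056 per library. Reads of the Cre row were 0 in the 4 wild type libraries, 444 to 3243 in the 4 transgenic brown libraries, and 83, 0, 0 and 0 in the transgenic white ones. Zic1, a transcription factor of brown fat, stood at 5.95 to 17.2 CPM (counts scaled for library size) in brown libraries and at 0 to 0.0375 CPM in white. Markers of other cell types differed between groups, and whether this stems from dissection or from the transgene cannot be told apart. The summed level of 12 lymphocyte markers was 8.55 to 10.5 CPM in wild type white libraries, 1880 to 2142 CPM in the 4 transgenic white libraries and 5.40 to 14.6 CPM in brown. The summed level of 16 skeletal muscle markers was 1534 and 3818 CPM in wild type brown libraries and 9 to 27.7 CPM in transgenic brown, with 6 to 8 of the 16 at 0. It was 11.4 to 13.7 CPM in wild type white, 2310 and 26.3 CPM with 1 copy and 144 and 27.3 CPM with 2 copies. Epithelial markers summed to 486 to 1724 CPM in white and to 0.438 to 2.55 CPM in brown. In such bulk tissue, fewer cells of a type and less RNA per cell cannot be told apart.

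All values below are CPM after TMM scaling of the 12 libraries, written for replicate 1 and then replicate 2. CPM is not corrected for gene length, so levels are compared between samples and not between genes. A log2 fold change (± SE) comes from edgeR's quasi-likelihood test and is called when the p-value adjusted over all genes tested is below 0.05. Of the 46 members, 37 passed the filter on low counts in white adipose and in the fit of all 12 libraries, and 28 of them also in brown adipose. The 9 that passed in white but not in brown (Timp1, Mmp12, Mmp13, Mmp27, Adamts8, Adamts13, Adamts17, Adamts18 and Adamts19) entered the tissue comparisons through white adipose only, so the filter favoured those that were higher there, and counts over the 28 tested in both tissues are given first. The other 9 (Mmp1a, Mmp1b, Mmp7, Mmp8, Mmp10, Mmp16, Mmp20, Mmp21 and Mmp24) stayed at or below 0.425 CPM in every library and were not tested. Mmp1a and Mmp1b had no read in any library. All 37 tested members passed in at least 1 of the 12 comparisons. In 1 of these alone, the tissue difference averaged over the genotypes, 81.3% of all genes tested were called. The share of all genes that passed in at least 1 was not counted. By the mm10 annotation 13 of the 46 share exonic bases with a neighbouring gene, at most 22.3% (Mmp19). The library kit keeps strand, but the strand setting of the counting is not given in the sources used here, so reads of such pairs may be mixed.

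**Figure D1:**
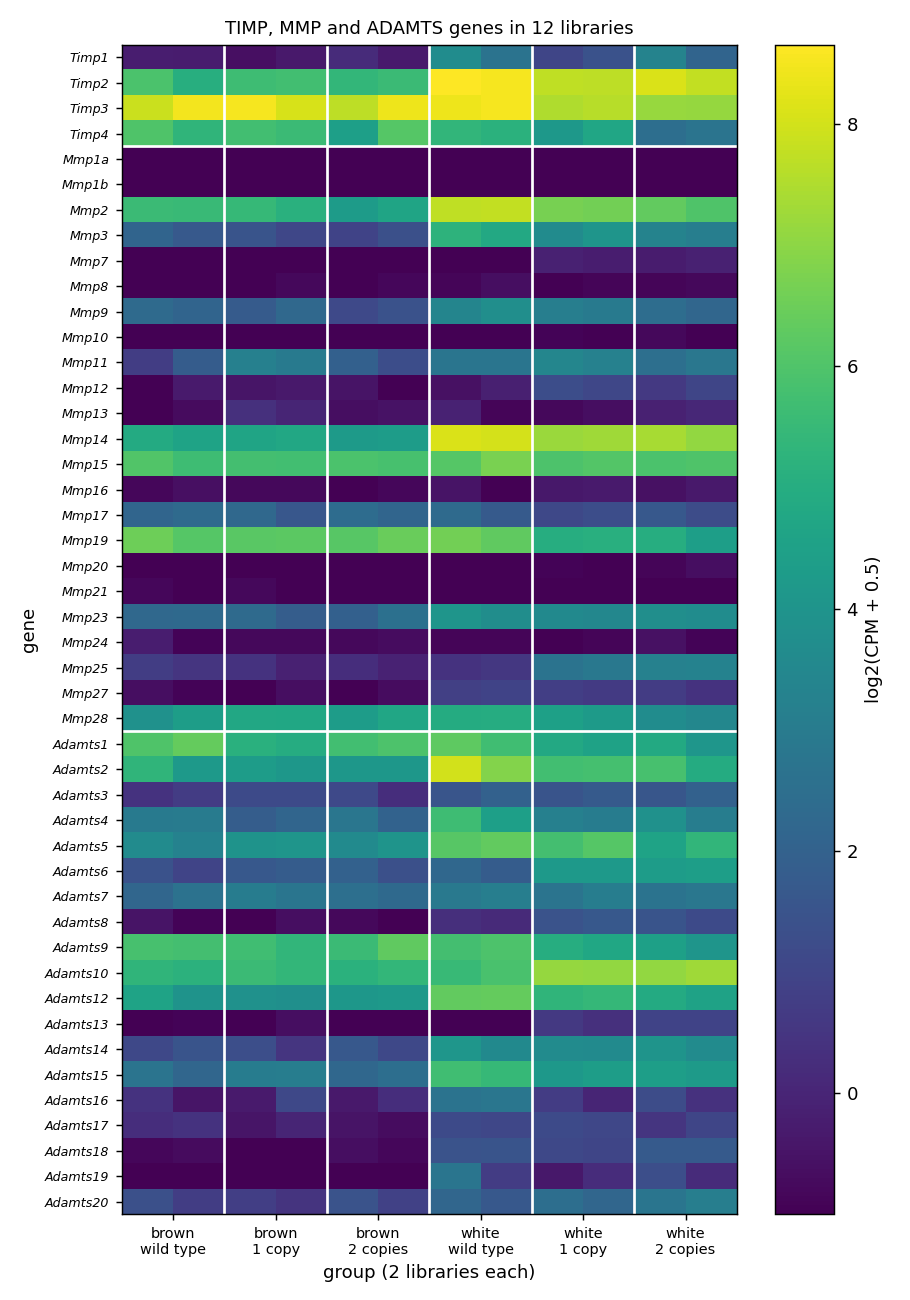
Level of all 46 members in the 12 libraries, as log2(CPM + 0.5), with genes in rows and the 2 libraries of each group side by side; white lines separate the groups and the 3 families. Timp2 is bright in white columns (204 to 403 CPM) and darker in brown columns (32.6 to 59.8 CPM), while Mmp1a and Mmp1b are at 0 throughout.

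The genes of 10 MMPs lie side by side on chromosome 9 (mm10, 7272514 to 7699585, a span of 427.1 kb). In order they are Mmp13, Mmp12, Mmp1b, Mmp3, Mmp1a, Mmp10, Mmp8, Mmp27, Mmp20 and Mmp7. The start of many of these genes carries the core site of AP-1, the Fos and Jun transcription factor. Promoter sequences from RefSeq (GRCm38.p6) were at hand for 32 of the 46 members. The letters TGANTCA were searched on both strands in the 250 bases before the start. They were found for 8 members, all of them among the 10 genes of the cluster, and for none of the 22 members with a promoter sequence elsewhere, at 35 to 95 bases before the start. Of all 32851 promoter windows of that length 6.75% held the letters. The 100 bases before the start are shown for 4 cluster genes that had reads in several white libraries, for Mmp10, which had 3 reads in all, and for Mmp27, which lacks the letters. Mmp12 and Mmp7 have 2 RefSeq starts each, and the one with the letters is shown. All lie on the plus strand, and capitals mark the AP-1 core.
Mmp3 (chr9:7445722-7445821): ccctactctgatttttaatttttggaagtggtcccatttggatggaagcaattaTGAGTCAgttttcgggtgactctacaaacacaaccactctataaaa
Mmp12 (chr9:7347274-7347373): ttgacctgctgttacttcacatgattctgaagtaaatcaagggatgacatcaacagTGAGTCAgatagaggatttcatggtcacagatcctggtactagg
Mmp7 (chr9:7691990-7692089): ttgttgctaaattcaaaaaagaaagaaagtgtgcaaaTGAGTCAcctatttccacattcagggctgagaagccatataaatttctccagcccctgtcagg
Mmp13 (chr9:7272414-7272513): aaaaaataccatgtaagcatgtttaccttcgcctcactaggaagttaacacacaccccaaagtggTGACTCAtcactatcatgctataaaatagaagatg
Mmp10 (chr9:7502242-7502341): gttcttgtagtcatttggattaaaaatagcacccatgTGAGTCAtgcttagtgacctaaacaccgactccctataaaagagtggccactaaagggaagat
Mmp27 (chr9:7571296-7571395): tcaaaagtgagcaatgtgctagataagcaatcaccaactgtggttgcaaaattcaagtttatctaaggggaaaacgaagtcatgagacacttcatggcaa
A match of letters is a description of the sequence and not evidence of binding. Levels of the cluster genes are given as description only, and a link to the letters was not tested. Mmp3 had reads in every library and was higher in white, Mmp7 and Mmp12 were highest in transgenic white libraries, and Mmp1a, Mmp1b, Mmp10 and Mmp20 had 0 to 4 reads in any library.

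Wild type brown and wild type white adipose were compared to see how the depots differ without the transgene. Most tested members were lower in brown fat. Timp2, Mmp14, Mmp2, Mmp3 and Adamts15 were each more than 4-fold lower, and no member was higher. Of the 28 members tested in both tissues, 21 were lower in brown adipose, 0 were higher and 7 did not pass. With the 9 that entered through white, 27 of 37 were lower and 10 did not pass. When only the 4 wild type libraries were fitted, Mmp15, Adamts6, Adamts7, Adamts10, Adamts17 and Adamts20 lost their calls (adjusted p = 0.0502 to 0.119). Adamts7 and Adamts17 also lost theirs with DESeq2 (0.0504 and 0.0946) and without the filter on low counts (0.0588 and 0.0546). Across all 15559 genes tested, 32.1% were called lower and 29% higher in brown, 61.1% in all. The median log2 fold change was -1.50 for the 28 and -1.55 for all 37, against -0.04 for all genes. In this and the other tissue comparisons the all-gene values include genes that passed the filter through 1 tissue only. In the same comparison 9 of 10 fibroblast and progenitor markers, 10 of 10 macrophage markers and 8 of 8 epithelial markers were lower in brown, while 12 of 16 muscle markers were higher. Their part in the result was not tested.

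Among the inhibitors, Timp1 and Timp2 were lower in brown fat and Timp3 and Timp4 were not called. Brown libraries held Timp2, which inhibits MMPs and also helps Mmp14 to activate the Mmp2 precursor, at 59.8 and 32.6 CPM in wild type, 49.3 and 52.02 with 1 copy, and 41.3 and 47.02 with 2 copies. The gene lies on chromosome 11 (118301069 to 118355740, minus strand, mm10). White libraries held Timp2 at 403 and 368 CPM in wild type, 212 and 204 with 1 copy, and 276 and 215 with 2 copies. Every brown library lay below every white one, and the wild type difference was -3.07 ± 0.25 (adjusted p = 8.53e-06). Timp1, a secreted inhibitor of most MMPs, was low in brown fat, at 0.346 and 0.340 CPM in wild type, 0.151 and 0.283 with 1 copy, and 0.642 and 0.313 with 2 copies. In white fat Timp1 was at 12.4 and 5.88 CPM in wild type, 1.54 and 2.22 with 1 copy, and 9.56 and 3.79 with 2 copies. The wild type difference was -4.72 ± 0.62 (adjusted p = 1.10e-04), and the ranges of the tissues did not overlap.

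Timp3 binds to the matrix and inhibits ADAMTS proteases as well as MMPs. Brown libraries held Timp3 at 236 and 354 CPM in wild type, 364 and 267 with 1 copy, and 205 and 339 with 2 copies. White libraries held Timp3 at 343 and 364 CPM in wild type, 180.1 and 196 with 1 copy, and 144 and 138 with 2 copies. Wild type values overlapped between the tissues (-0.26 ± 0.25, adjusted p = 0.399), while every transgenic white library was below every brown one. The Timp3 gene lies within Syn3 on the opposite strand and shares 21.3% of its exonic bases with it. Timp4 (chromosome 6, 115241892 to 115252205) is the inhibitor best known from heart and fat. Brown libraries held Timp4 at 63.7 and 38.8 CPM in wild type, 52.3 and 47.6 with 1 copy, and 21.4 and 69.03 with 2 copies, with the lowest value in a 2-copy library. White libraries held Timp4 at 40.3 and 35.4 CPM in wild type, 17.1 and 25.7 with 1 copy, and 5.07 and 6.05 with 2 copies. Wild type tissues overlapped (0.43 ± 0.48, adjusted p = 0.464), and the lowest of all 12 values were those of white adipose with 2 copies.

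**Figure D2:**
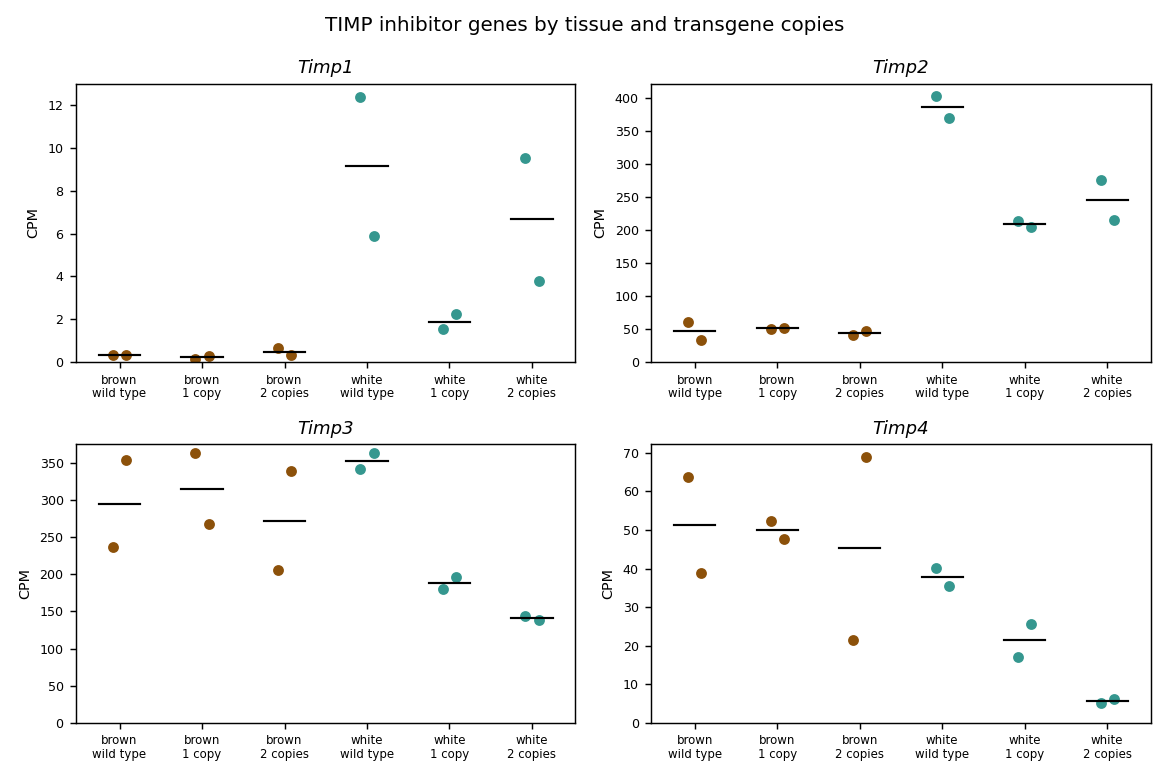
CPM of the 4 Timp genes in each library (points) by tissue and transgene copies, with the mean of the 2 libraries as a line. Timp1 and Timp2 are low in all brown libraries (at most 0.642 and 59.8 CPM), and Timp4 falls to 5.07 and 6.05 CPM in white adipose with 2 copies.

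Membrane-bound MMPs differed by member. Mmp14 (chromosome 14, 54431612 to 54445364), a collagenase anchored in the cell membrane that also activates the Mmp2 precursor, was at 29.5 and 23.97 CPM in wild type, 24.7 and 27.4 with 1 copy, and 18.7 and 19.7 with 2 copies in brown adipose. In white adipose Mmp14 was at 273 and 262 CPM in wild type, 145 and 155 with 1 copy, and 168 and 137 with 2 copies. All white values were above all brown values, with a wild type difference of -3.33 ± 0.13 (adjusted p = 3.51e-07), the smallest adjusted p among members in this comparison. Mmp15, a close relative of Mmp14, was at 65.2 and 49.3 CPM in wild type, 53.8 and 52.6 with 1 copy, and 59.6 and 57.6 with 2 copies in brown adipose. In white adipose Mmp15 was at 68.01 and 103 CPM in wild type, 61.7 and 67.3 with 1 copy, and 59.3 and 64.03 with 2 copies, overlapping the brown range. Its wild type difference was -0.59 ± 0.18 (adjusted p = 0.0187), a call that was lost without brown wild type replicate 2 (adjusted p = 0.140) or white wild type replicate 2 (adjusted p = 0.202). Mmp17, which is held to the membrane by a lipid anchor, was at 3.94 and 4.57 CPM in wild type, 4.31 and 2.55 with 1 copy, and 4.85 and 3.94 with 2 copies in brown adipose. In white adipose Mmp17 was at 4.52 and 2.85 CPM in wild type, 1.61 and 1.91 with 1 copy, and 2.64 and 1.88 with 2 copies, and the wild type groups did not differ beyond their spread (0.21 ± 0.33, adjusted p = 0.600). Mmp25, another lipid-anchored member that leukocytes are known to make, was at 1.18 and 0.906 CPM in wild type, 0.832 and 0.425 with 1 copy, and 0.714 and 0.438 with 2 copies in brown adipose. Mmp25 in white adipose was at 0.833 and 0.980 CPM in wild type, 5.85 and 6.71 with 1 copy, and 8.97 and 9.20 with 2 copies. Wild type white libraries lay within the brown range and transgenic ones far above it (wild type 0.17 ± 0.34, adjusted p = 0.709).

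Both gelatinases, which cut denatured collagen and basement membrane collagen, were lower in brown fat. Mmp2 (chromosome 8, 92827291 to 92853420) was at 47.7 and 46.4 CPM in wild type, 44.01 and 34.9 with 1 copy, and 19.3 and 24.5 with 2 copies in brown libraries. White libraries held Mmp2 at 213 and 220.2 CPM in wild type, 102 and 96.4 with 1 copy, and 79.6 and 63.1 with 2 copies, all above the highest brown value, and the wild type difference was -2.20 ± 0.15 (adjusted p = 1.66e-06). Mmp9 was at 4.50 and 3.78 CPM in wild type, 2.95 and 4.32 with 1 copy, and 1.71 and 2.19 with 2 copies in brown libraries. White libraries held Mmp9 at 10.1 and 13.1 CPM in wild type, 8.33 and 7.37 with 1 copy, and 4.99 and 4.04 with 2 copies. The lowest white value, from a 2-copy library, overlapped the brown range, and the wild type difference was -1.49 ± 0.25 (adjusted p = 4.77e-04).

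The stromelysins Mmp3 and Mmp11 were both lower in brown wild type fat. Mmp3, which cuts proteoglycans and fibronectin and can activate other MMPs, was at 3.87 and 2.76 CPM in wild type, 2.34 and 1.56 with 1 copy, and 1.43 and 2.06 with 2 copies in brown libraries. White libraries held Mmp3 at 37.7 and 27.8 CPM in wild type, 11.96 and 15.8 with 1 copy, and 9.60 and 8.14 with 2 copies, above every brown value, with a wild type difference of -3.33 ± 0.27 (adjusted p = 4.79e-06). Mmp11, which furin activates before secretion, was at 1.18 and 2.98 CPM in wild type, 8.77 and 7.30 with 1 copy, and 3.43 and 1.94 with 2 copies in brown libraries. White libraries held Mmp11 at 6.18 and 6.19 CPM in wild type, 10.4 and 9.06 with 1 copy, and 5.20 and 6.58 with 2 copies. The highest brown values were those with 1 copy and lay within the white range; the wild type difference was -1.51 ± 0.37 (adjusted p = 0.00543).

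Of the macrophage elastase Mmp12, which degrades elastin, brown libraries held 0 and 0.302 CPM in wild type, 0.227 and 0.283 with 1 copy, and 0.214 and 0 with 2 copies. White libraries held Mmp12 at 0.175 and 0.401 CPM in wild type, 1.95 and 1.55 with 1 copy, and 1.01 and 1.52 with 2 copies. The 4 transgenic white libraries were above all others, and the wild type tissues did not differ beyond their spread (-0.64 ± 0.98, adjusted p = 0.593). Mmp13, a collagenase of fibrillar collagens, stayed low in brown adipose at 0 and 0.113 CPM in wild type, 0.756 and 0.496 with 1 copy, and 0.143 and 0.188 with 2 copies. White libraries held Mmp13 at 0.439 and 0.0446 CPM in wild type, 0.0750 and 0.133 with 1 copy, and 0.419 and 0.566 with 2 copies, with 16 reads at most, and the wild type difference was not called (-1.70 ± 1.10, adjusted p = 0.206).

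Of the other MMPs, Mmp19 is a secreted protease of basement membrane proteins. Brown libraries held Mmp19 at 91.7 and 68.2 CPM in wild type, 72.8 and 73.9 with 1 copy, and 70.2 and 86.5 with 2 copies. White libraries held Mmp19 at 97.1 and 77.2 CPM in wild type, 31.7 and 33.2 with 1 copy, and 32.1 and 20.99 with 2 copies. Wild type tissues overlapped (-0.13 ± 0.21, adjusted p = 0.620), and the 4 transgenic white libraries were lowest; 22.3% of the exonic bases of Mmp19 are shared with Tmem198b on the opposite strand. Mmp23, a small protease that lacks the usual hemopexin domain, was at 4.36 and 4.42 CPM in wild type, 4.61 and 3.12 with 1 copy, and 3.35 and 5.44 with 2 copies in brown adipose. In white adipose Mmp23 was at 15.8 and 12.8 CPM in wild type, 11.5 and 10.5 with 1 copy, and 13.1 and 12.4 with 2 copies, all above the brown values (wild type -1.70 ± 0.25, adjusted p = 1.89e-04). Mmp27 had 0 to 2 reads per brown library and stood at 1.27 and 1.43 CPM in wild type, 1.24 and 1.07 with 1 copy, and 1.13 and 0.850 with 2 copies in white adipose (wild type adjusted p = 0.00145). In wild type the white to brown ratio was 18.4 (exact Clopper-Pearson 95% interval 6.01 to 91.7, counting error only), from 61 and 3 reads in all. Mmp28, called epilysin after its expression in epithelia, was at 14.3 and 20.3 CPM in wild type, 27.2 and 26.5 with 1 copy, and 19.6 and 25.9 with 2 copies in brown libraries. White libraries held Mmp28 at 30.4 and 31.3 CPM in wild type, 21.8 and 18.4 with 1 copy, and 12.5 and 10.6 with 2 copies, so that the order of the tissues differed between wild type (-0.82 ± 0.18, adjusted p = 0.00305) and 2 copies (0.98 ± 0.19, adjusted p = 7.89e-04).

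All 3 proteases that remove the amino-terminal propeptide of fibrillar procollagens were lower in brown fat. Adamts2 was at 39.3 and 17.7 CPM in wild type, 19.7 and 16.7 with 1 copy, and 16.6 and 16.7 with 2 copies in brown libraries. White libraries held Adamts2 at 255 and 117 CPM in wild type, 52.7 and 55.2 with 1 copy, and 56.6 and 30.2 with 2 copies, with the wild type libraries far apart, and the wild type difference was -2.73 ± 0.50 (adjusted p = 0.00185). Adamts14 was at 1.66 and 2.38 CPM in wild type, 1.97 and 0.921 with 1 copy, and 2.64 and 1.63 with 2 copies in brown libraries. White libraries held Adamts14 at 16.4 and 11.4 CPM in wild type, 11.96 and 11.8 with 1 copy, and 15.3 and 12.1 with 2 copies, above every brown value (-2.75 ± 0.34, adjusted p = 6.41e-05). Adamts3, which also activates the lymphatic growth factor VEGF-C, was at 0.830 and 1.13 CPM in wild type, 1.74 and 1.77 with 1 copy, and 1.71 and 0.688 with 2 copies in brown libraries. White libraries held Adamts3 at 2.41 and 3.48 CPM in wild type, 2.36 and 2.84 with 1 copy, and 2.47 and 3.47 with 2 copies, all above the brown values. Its wild type difference was -1.55 ± 0.42 (adjusted p = 0.00849), a call lost without white wild type replicate 2 (adjusted p = 0.0543).

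Proteoglycan-cutting members split into those lower in brown fat and those at like levels in wild type. Adamts1 (chromosome 16, 85793827 to 85803113), a protease of versican, was at 63.1 and 82.0 CPM in wild type, 34.8 and 30.7 with 1 copy, and 52.7 and 61.3 with 2 copies in brown libraries. White libraries held Adamts1 at 76.1 and 51.3 CPM in wild type, 28.02 and 22.96 with 1 copy, and 28.7 and 16.4 with 2 copies, overlapping in wild type (0.19 ± 0.27, adjusted p = 0.565). Adamts9 also cuts versican, and brown libraries held Adamts9 at 56.6 and 54.2 CPM in wild type, 51.7 and 40.7 with 1 copy, and 47.8 and 79.03 with 2 copies. White libraries held Adamts9 at 53.5 and 61.2 CPM in wild type, 31.5 and 26.7 with 1 copy, and 22.1 and 15.9 with 2 copies, again overlapping in wild type (-0.05 ± 0.23, adjusted p = 0.872). The aggrecanase Adamts4 was at 7.19 and 7.59 CPM in wild type, 3.10 and 3.97 with 1 copy, and 6.42 and 3.63 with 2 copies in brown libraries. White libraries held Adamts4 at 49.3 and 21.2 CPM in wild type, 8.78 and 7.86 with 1 copy, and 14.1 and 8.04 with 2 copies, highest in wild type (-2.25 ± 0.42, adjusted p = 0.00146).

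The aggrecanase Adamts5 was at 12.1 and 9.29 CPM in wild type, 15.2 and 15.9 with 1 copy, and 11.9 and 15.6 with 2 copies in brown libraries. White libraries held Adamts5 at 70.8 and 80.9 CPM in wild type, 54.8 and 68.8 with 1 copy, and 23.7 and 40.5 with 2 copies, all above the brown values (-2.84 ± 0.26, adjusted p = 1.69e-05). For Adamts15, another proteoglycanase, brown libraries gave 6.02 and 4.002 CPM in wild type, 7.79 and 7.94 with 1 copy, and 4.14 and 5.06 with 2 copies. White libraries held Adamts15 at 51.8 and 44.03 CPM in wild type, 17.3 and 19.98 with 1 copy, and 20.8 and 18.7 with 2 copies, all above the brown values (-3.28 ± 0.20, adjusted p = 9.34e-07). Adamts20, a relative of Adamts9, was at 2.08 and 1.21 CPM in wild type, 1.21 and 0.851 with 1 copy, and 2.28 and 1.31 with 2 copies in brown libraries. White libraries held Adamts20 at 4.08 and 2.63 CPM in wild type, 5.06 and 3.997 with 1 copy, and 6.25 and 8.18 with 2 copies. Its wild type difference was -1.07 ± 0.38 (adjusted p = 0.0333), a call lost without brown wild type replicate 2 (adjusted p = 0.222) or white wild type replicate 1 (adjusted p = 0.197). Adamts8 had 0 to 3 reads per brown library and stood at 0.745 and 0.624 CPM in wild type, 2.29 and 2.62 with 1 copy, and 2.35 and 1.77 with 2 copies in white adipose. Its wild type difference was -2.67 ± 0.79 (adjusted p = 0.0135), lost without brown wild type replicate 2 (adjusted p = 0.132).

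Among the remaining ADAMTS genes, Adamts12 and Adamts7 encode proteases of the cartilage protein COMP. Adamts12 was at 23.9 and 14.9 CPM in wild type, 14.3 and 13.6 with 1 copy, and 16.8 and 17.6 with 2 copies in brown libraries. White libraries held Adamts12 at 81.1 and 81.9 CPM in wild type, 39.5 and 42.4 with 1 copy, and 29.7 and 23.1 with 2 copies, and only the lowest 2-copy value fell within the brown range (-2.09 ± 0.19, adjusted p = 1.14e-05). Adamts7 was at 4.01 and 5.78 CPM in wild type, 7.79 and 6.31 with 1 copy, and 5.21 and 4.44 with 2 copies in brown libraries. White libraries held Adamts7 at 6.93 and 8.20 CPM in wild type, 6.11 and 8.13 with 1 copy, and 5.83 and 6.55 with 2 copies, and the wild type call (-0.61 ± 0.24, adjusted p = 0.0474) was lost in 11 of 12 fits that left out 1 library (adjusted p = 0.0508 to 0.229). Adamts10 and Adamts6 are a pair of related proteases linked to fibrillin microfibrils. Brown libraries held Adamts10 at 38.9 and 36.4 CPM in wild type, 46.96 and 40.97 with 1 copy, and 35.6 and 41.3 with 2 copies. White libraries held Adamts10 at 44.4 and 58.1 CPM in wild type, 139 and 137 with 1 copy, and 137 and 154 with 2 copies, higher in every transgenic library than in either wild type one. The wild type difference between tissues was -0.45 ± 0.14 (adjusted p = 0.0158), lost without brown wild type replicate 2 (adjusted p = 0.0823) or white wild type replicate 2 (adjusted p = 0.166). Adamts6 was at 2.21 and 1.47 CPM in wild type, 2.65 and 3.05 with 1 copy, and 3.50 and 2.06 with 2 copies in brown libraries. White libraries held Adamts6 at 4.12 and 2.99 CPM in wild type, 18.2 and 18.2 with 1 copy, and 19.96 and 20.6 with 2 copies, with all transgenic values above both wild type ones. The wild type tissue difference of Adamts6 was -0.98 ± 0.29 (adjusted p = 0.0126), lost without brown wild type replicate 2 (adjusted p = 0.117) or white wild type replicate 1 (adjusted p = 0.0852).

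Low-level members completed the family. Adamts13, which cuts von Willebrand factor, had 0 to 2 reads per brown library and 0 in both wild type white ones. Transgenic white libraries held Adamts13 at 1.01 and 0.755 CPM with 1 copy and 1.43 and 1.42 CPM with 2 copies. Adamts16 was at 0.830 and 0.227 CPM in wild type, 0.302 and 1.63 with 1 copy, and 0.285 and 0.688 with 2 copies in brown libraries. White libraries held Adamts16 at 5.92 and 6.46 CPM in wild type, 1.16 and 0.489 with 1 copy, and 1.89 and 0.814 with 2 copies, highest in wild type (-3.67 ± 0.81, adjusted p = 0.00299). Adamts17 was at 0.692 and 0.831 CPM in wild type, 0.227 and 0.496 with 1 copy, and 0.214 and 0.125 with 2 copies in brown libraries. White libraries held Adamts17 at 1.75 and 1.56 CPM in wild type, 1.76 and 1.55 with 1 copy, and 0.923 and 1.52 with 2 copies, all above the brown values. Its wild type call (-1.10 ± 0.41, adjusted p = 0.0403) was lost in 6 of 12 fits that left out 1 library (adjusted p = 0.0560 to 0.132). Adamts18 had 0 to 3 reads per brown library and stood at 2.24 and 2.36 CPM in wild type, 1.61 and 1.51 with 1 copy, and 2.81 and 2.80 with 2 copies in white adipose (-4.49 ± 0.46, adjusted p = 3.57e-05). Adamts19 had no read in any brown library and was at 6.18 and 1.16 CPM in wild type, 0.263 and 0.666 with 1 copy, and 2.01 and 0.637 with 2 copies in white adipose. In wild type Adamts19 was at least 50.4-fold higher in white than in brown, with the brown group set at 3 counts over its libraries (adjusted p = 0.00720). Without white wild type replicate 1, which held 141 of the 167 reads, the bound was 15.8-fold.

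The same tissue comparison was then made within the transgenic mice, where brown libraries held little muscle RNA and white libraries held lymphocyte RNA. With 1 copy, 16 of the 28 members tested in both tissues were lower in brown and 4 higher; with the 9 that entered through white, 23 of 37 were lower and 5 higher (all genes: 40.6% lower and 29.4% higher, 70.1% in all). With 2 copies 18 of the 28 were lower and 7 higher, and 26 and 7 of all 37 (all genes: 42.3% lower and 32.1% higher, 74.4% in all). The median log2 fold changes of the 28 were -1.24 and -1.27, against -0.24 and -0.24 for all genes. In all 3 genotypes 15 of the 28 were lower in brown, and 0 were higher in all 3. This overlap was not counted for all genes, so whether it is unusual cannot be told. The 15 were Timp2; Mmp2, Mmp3, Mmp9, Mmp14 and Mmp23; and Adamts2, Adamts4, Adamts5, Adamts6, Adamts10, Adamts12, Adamts14, Adamts15 and Adamts20. Timp1, Mmp27, Adamts8, Adamts17 and Adamts18 were also lower in all 3, but entered through white. Mmp14 differed by -2.53 ± 0.13 with 1 copy and -2.99 ± 0.13 with 2 copies (adjusted p = 8.83e-08 and 2.23e-08). Timp2 differed by -2.04 ± 0.24 and -2.47 ± 0.25 (adjusted p = 5.31e-05 and 1.21e-05). For Mmp3 the values were -2.83 ± 0.30 and -2.33 ± 0.30 (adjusted p = 1.19e-05 and 4.11e-05).

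With the transgene some members were higher in brown than in white, against 0 in wild type. Mmp19, Adamts9, Mmp17 and Timp3 were higher with 1 and with 2 copies. Mmp13 was also higher with 1 copy, and Adamts1, Mmp28 and Timp4 with 2 copies. Mmp19 differed by 1.18 ± 0.21 and 1.56 ± 0.22 (adjusted p = 7.92e-04 and 1.07e-04) and Timp4 with 2 copies by 3.02 ± 0.54 (adjusted p = 0.00112). For Mmp19 brown levels overlapped between the 3 genotypes (68.2 to 91.7 CPM) and white levels were lower in the transgenic groups (at most 33.2 CPM) than in wild type (77.2 and 97.1 CPM). Of these, Adamts9, Mmp17, Mmp13 and Timp3 lost the 1-copy call without at least 1 library of the compared groups (largest adjusted p = 0.18, 0.269, 0.141 and 0.165), and Mmp17 and Timp3 the 2-copy call (0.155 and 0.0689). Among members lower in brown, the same held with 1 copy for Adamts2, Adamts4 and Mmp12 (0.0965, 0.16 and 0.0811). With 2 copies it held for Adamts2, Adamts3, Adamts4, Adamts12, Adamts19, Mmp11 and Mmp12 (0.2, 0.116, 0.236, 0.116, 0.0769, 0.137 and 0.0564). Adamts4 also lost both calls with median-of-ratios scaling (0.0545 and 0.0547), and Adamts2 the 2-copy call without the filter (0.0546). Adamts3 and Adamts4 lost the 2-copy call when only the 4 libraries compared were fitted (0.0527 and 0.0523). Mmp13 lost the 1-copy call with DESeq2 (0.0566).

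Averaged over the 3 genotypes, 21 of the 28 members tested in both tissues were lower in brown adipose and 6 were higher; of all 37, 28 were lower and 6 higher (all genes: 46.2% lower and 35% higher, 81.3% in all). Mmp14 had the smallest adjusted p among members (-2.95 ± 0.08, adjusted p = 3.05e-10), followed by Mmp2 (-1.74 ± 0.09, adjusted p = 1.78e-08) and Adamts15 (-2.21 ± 0.11, adjusted p = 2.22e-08). The 6 higher members were Timp4 (1.56 ± 0.29, adjusted p = 0.00115), Mmp19 (0.87 ± 0.12, adjusted p = 8.98e-05), Adamts9 (0.79 ± 0.14, adjusted p = 4.72e-04), Mmp17 (0.71 ± 0.20, adjusted p = 0.00638), Adamts1 (0.63 ± 0.16, adjusted p = 0.00479) and Timp3 (0.48 ± 0.15, adjusted p = 0.0127). Of the 34 calls 32 passed in every fit that left out 1 library, the exceptions being Adamts7 (largest adjusted p = 0.142) and Mmp15 (0.0531).

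**Figure D3:**
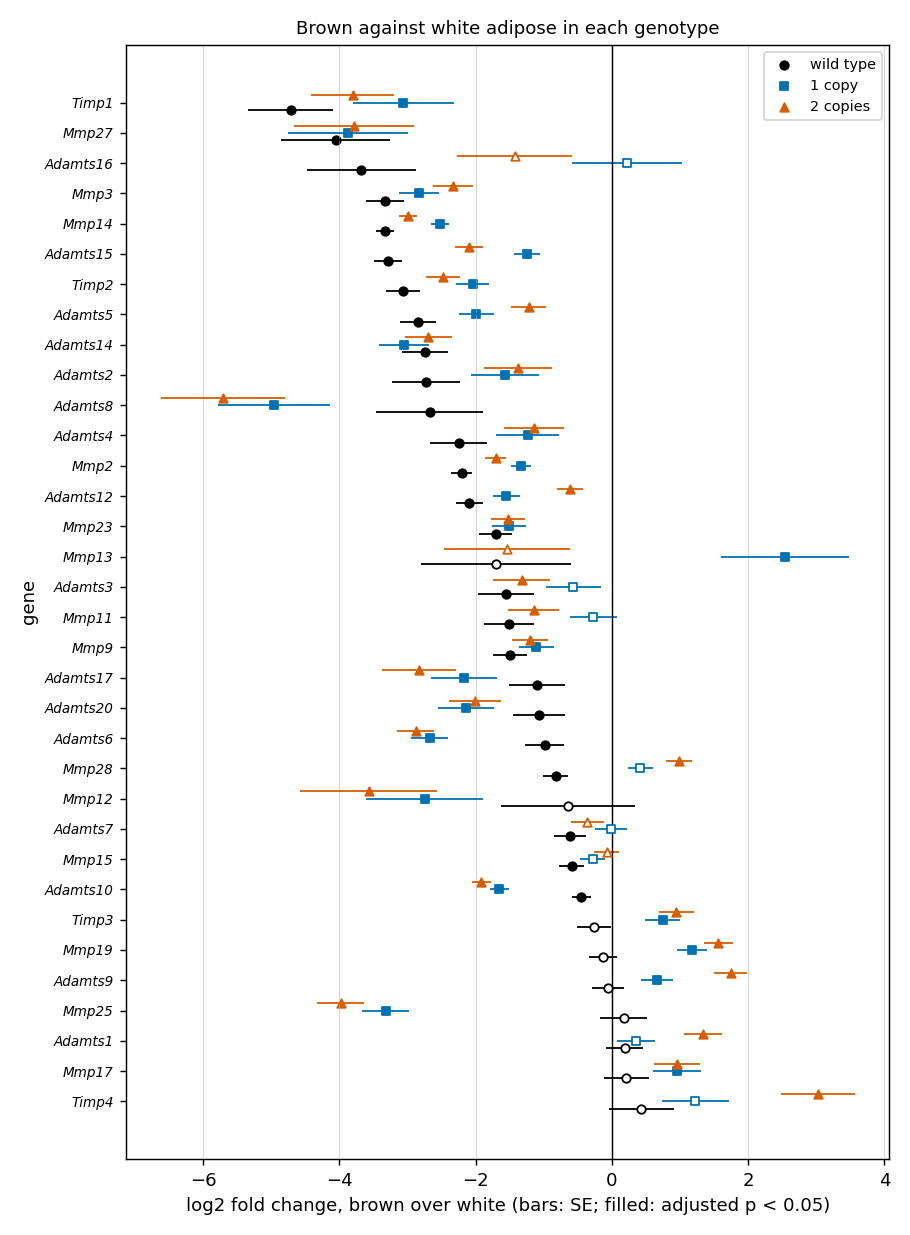
Log2 fold change of brown over white adipose (x axis) for tested members (y axis) in wild type, 1-copy and 2-copy mice; bars are SE and filled symbols passed the test. Adamts13, Adamts18 and Adamts19 are left out because a group had no reads. Members such as Mmp14 lie left of 0 in all 3 genotypes, and no filled wild type symbol lies right of 0.

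The 1-copy transgenic white depot was set against wild type white adipose to see what the transgene changes there. All 4 inhibitors were lower, as were Mmp14, Mmp2, Mmp3, Mmp19 and 7 ADAMTS genes, while Mmp25, Adamts6 and Adamts10 were higher. In all, 17 of 37 tested members were lower and 7 higher. Of the 7, Mmp12 and Adamts13 entered the test through the transgenic libraries. Of all 15287 genes tested, 23.6% were called lower and 28.4% higher, 52% in all, against 64.9% of the members. The summed lymphocyte markers rose from 8.55 and 10.5 CPM to 1883 and 1880 CPM in the same libraries. The general and depot markers of adipocytes had a median log2 fold change of -1.02, with 5 of 9 lower. Of 8 endothelial markers 5 were lower and 1 higher, of 10 macrophage markers 6 were lower and 2 higher, and of 10 fibroblast and progenitor markers 5 were lower and 4 higher. Epithelial markers gave 3 lower and 0 higher of 8, with sums of 486 and 895 CPM against 1440 and 1724 CPM in wild type. Muscle markers summed to 2310 CPM in 1-copy replicate 1 and to at most 26.3 CPM in the other 3 libraries. The part of this tissue mix in the members' changes was not tested.

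All 4 inhibitors fell with 1 copy. Timp3 changed by -0.91 ± 0.09 (adjusted p = 6.17e-04), Timp2 by -0.89 ± 0.14 (adjusted p = 0.00317) and Timp4 by -0.83 ± 0.21 (adjusted p = 0.0199). Timp1 changed by -2.29 ± 0.61 (adjusted p = 0.0258). The Timp1 call was lost without white 1-copy replicate 1 (adjusted p = 0.117), white 1-copy replicate 2 (adjusted p = 0.0794) or white wild type replicate 1 (adjusted p = 0.0963). The Timp4 call was lost without white 1-copy replicate 1 (adjusted p = 0.0533) or white wild type replicate 1 (adjusted p = 0.0736), and also when all 12 libraries were fitted together (0.196).

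Among the MMPs 6 were lower and 3 higher with 1 copy. Mmp2 (-1.13 ± 0.12, adjusted p = 9.24e-04) and Mmp14 (-0.83 ± 0.12, adjusted p = 0.00235), which act together in collagen breakdown, fell. So did Mmp3 (-1.24 ± 0.21, adjusted p = 0.00462), Mmp19 (-1.43 ± 0.23, adjusted p = 0.00470) and Mmp28 (-0.62 ± 0.13, adjusted p = 0.00926), the last lost without white 1-copy replicate 2 (adjusted p = 0.0595). Mmp17 fell too (-1.07 ± 0.33, adjusted p = 0.0374), a call lost in 5 of 6 fits that left out 1 library (adjusted p = 0.0503 to 0.157). Mmp25 (2.78 ± 0.20, adjusted p = 1.86e-04) and Mmp12 (2.59 ± 0.49, adjusted p = 0.00652), which leukocytes and macrophages are known to make, rose, while 6 of 10 macrophage markers were lower and 2 higher. With 4 and 9 reads in wild type white, Mmp12 entered the test through the transgenic libraries, so the filter favoured a rise. Mmp11 rose (0.65 ± 0.17, adjusted p = 0.0226), a call lost in 4 of 6 fits that left out 1 library (adjusted p = 0.0507 to 0.126). Mmp7, the epithelial matrilysin, did not pass the filter on low counts, with 0 reads in wild type white and 11, 8, 8 and 12 reads in the transgenic white libraries. With wild type set at 3 counts over its libraries, Mmp7 was at least 5.83-fold higher with 1 copy and at least 5.79-fold higher with 2 copies. The bound was 5.36-fold without white 1-copy replicate 1 and 5.06-fold without white 2-copy replicate 2. Tested without the filter, Mmp7 was called with both doses (adjusted p = 0.00995 and 0.00767).

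Of the ADAMTS genes 7 were lower and 4 higher with 1 copy. Adamts15 (-1.36 ± 0.13, adjusted p = 5.81e-04), Adamts12 (-0.99 ± 0.13, adjusted p = 0.00174), Adamts9 (-0.98 ± 0.18, adjusted p = 0.00621) and Adamts16 (-2.88 ± 0.52, adjusted p = 0.00587) fell. Adamts2 (-1.79 ± 0.46, adjusted p = 0.0237), Adamts1 (-1.32 ± 0.32, adjusted p = 0.0204) and Adamts4 (-2.08 ± 0.48, adjusted p = 0.0163) fell as well. Of these, Adamts2 was lost without white 1-copy replicate 1 (adjusted p = 0.0961), white 1-copy replicate 2 (adjusted p = 0.0921) or white wild type replicate 1 (adjusted p = 0.105). Adamts1 was lost without white 1-copy replicate 1 (adjusted p = 0.0614), white 1-copy replicate 2 (adjusted p = 0.0980) or white wild type replicate 1 (adjusted p = 0.0995), and Adamts4 without white 1-copy replicate 1 (adjusted p = 0.0680) or white 1-copy replicate 2 (adjusted p = 0.0804). Adamts6 (2.35 ± 0.17, adjusted p = 1.96e-04), Adamts10 (1.43 ± 0.14, adjusted p = 5.68e-04) and Adamts8 (1.83 ± 0.32, adjusted p = 0.00470) rose, and Adamts13 was at least 13.5-fold higher, with wild type set at 3 counts over its libraries (adjusted p = 0.00211). With no wild type read, Adamts13 entered the test through the transgenic libraries. Its bound with 1 copy was 11.4-fold without white 1-copy replicate 1.

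The 2-copy white depot was tested against the same wild type libraries, which both doses therefore share. Again 17 members were lower and 7 higher of 37 tested. Of all genes 28.9% were lower and 32.1% higher, 61% in all, against 64.9% of the members. Lower with both doses were 15 members and higher with both were 6 (Mmp12, Mmp25, Adamts6, Adamts8, Adamts10 and Adamts13). The overlap of the doses was not counted for all genes, so whether that of the members is unusual cannot be told. Of the 6, Mmp12 and Adamts13 entered the test through the transgenic libraries. Lymphocyte markers summed to 1996 and 2142 CPM with 2 copies, and 8 of 9 adipocyte and depot markers were lower (median -2.10). Of the endothelial markers 7 of 8 were lower, and macrophage and fibroblast markers split as with 1 copy (6 lower and 2 higher, 5 lower and 4 higher, of 10 each). Epithelial markers gave 0 lower and 0 higher of 8.

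Among inhibitors Timp4 showed the largest fall with 2 copies (-2.76 ± 0.23, adjusted p = 2.40e-04), followed by Timp3 (-1.32 ± 0.09, adjusted p = 1.03e-04) and Timp2 (-0.65 ± 0.14, adjusted p = 0.00725). Timp1 stood at 9.56 and 3.79 CPM against 12.4 and 5.88 CPM in wild type, overlapping values (-0.46 ± 0.55, adjusted p = 0.505). Mmp2 (-1.60 ± 0.13, adjusted p = 1.69e-04), Mmp3 (-1.88 ± 0.22, adjusted p = 6.76e-04), Mmp19 (-1.72 ± 0.23, adjusted p = 0.00165), Mmp28 (-1.42 ± 0.13, adjusted p = 3.09e-04), Mmp14 (-0.81 ± 0.12, adjusted p = 0.00162) and Mmp9 (-1.36 ± 0.20, adjusted p = 0.00169) fell. Mmp25 (3.32 ± 0.20, adjusted p = 6.88e-05) and Mmp12 (2.12 ± 0.49, adjusted p = 0.0108) rose; the Mmp12 call was lost without white 2-copy replicate 2 (adjusted p = 0.0619).

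Of the ADAMTS genes, Adamts12 (-1.63 ± 0.13, adjusted p = 1.95e-04), Adamts15 (-1.28 ± 0.13, adjusted p = 4.25e-04), Adamts9 (-1.59 ± 0.18, adjusted p = 7.16e-04) and Adamts16 (-2.20 ± 0.50, adjusted p = 0.00990) fell with 2 copies. Adamts5 (-1.24 ± 0.27, adjusted p = 0.0104), Adamts1 (-1.50 ± 0.33, adjusted p = 0.0109), Adamts2 (-2.10 ± 0.46, adjusted p = 0.0116) and Adamts4 (-1.68 ± 0.47, adjusted p = 0.0259) also fell, each with a call that depended on a library. Adamts5 was lost without white wild type replicate 2 (adjusted p = 0.0674), Adamts1 without white wild type replicate 1 (adjusted p = 0.0608), Adamts2 without white 2-copy replicate 2 (adjusted p = 0.0544) or white wild type replicate 1 (adjusted p = 0.0535) and Adamts4 without white 2-copy replicate 2 (adjusted p = 0.120) or white wild type replicate 1 (adjusted p = 0.0678). Adamts6 (2.51 ± 0.17, adjusted p = 1.07e-04), Adamts10 (1.505 ± 0.14, adjusted p = 2.87e-04) and Adamts8 (1.58 ± 0.32, adjusted p = 0.00591) rose. Adamts20 rose (1.10 ± 0.28, adjusted p = 0.0152), a call lost without white 2-copy replicate 2 (adjusted p = 0.0915). Adamts13 was at least 21.4-fold higher, with wild type set at 3 counts over its libraries (adjusted p = 7.91e-04).

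**Figure D4:**
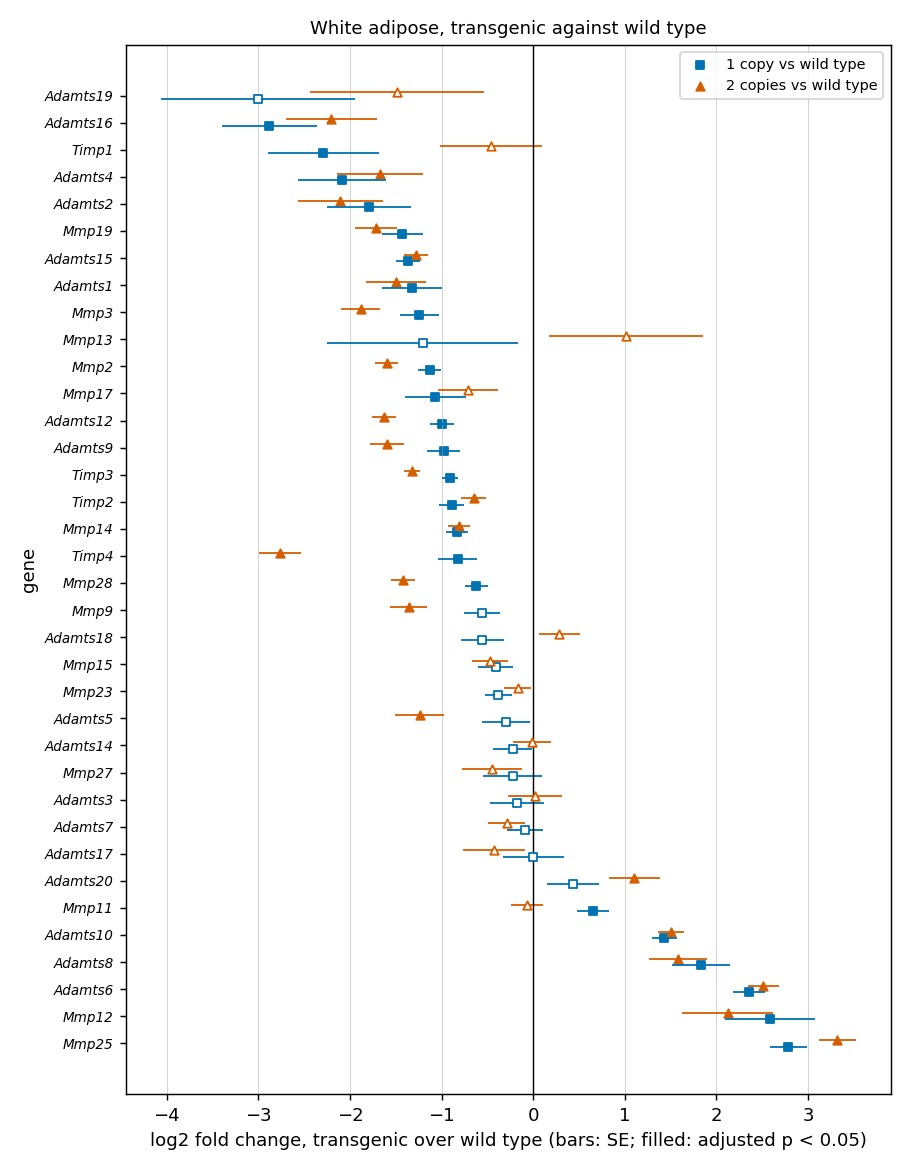
Log2 fold change in white adipose of 1 copy (squares) and 2 copies (triangles) over wild type (x axis) for tested members (y axis); bars are SE and filled symbols passed the test. Adamts13 is left out because wild type had no reads. Mmp25 and Adamts6 lie at the right, and Timp4 with 2 copies lies farther left (-2.76) than with 1 copy (-0.83).

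The doses were compared directly in white adipose, where lymphocyte markers were at like levels in both groups (1880 to 2142 CPM). Timp4 was lower with 2 copies than with 1 copy (-1.94 ± 0.23, adjusted p = 0.0301), at 5.07 and 6.05 CPM against 17.1 and 25.7 CPM. Mmp28 was also lower (-0.80 ± 0.13, adjusted p = 0.0484), at 12.5 and 10.6 CPM against 21.8 and 18.4 CPM. These were the 2 called members of 37, both lower (all genes: 1.83% lower and 0.0327% higher, 1.86% in all). Values of the groups did not overlap for either gene. With 2 libraries per group and genes picked by their call, this adds no support. The Timp4 call was lost in 4 of 6 fits that left out 1 library (log2 fold change -2.20 to -1.61). The Mmp28 call was lost in 4 of 6 as well (-0.93 to -0.68). The DESeq2 Wald test called 9 members instead of 2, and 1230 of all genes instead of 285. Among adipocyte and depot markers 1 of 9 was lower and none higher between these groups (median -1.14). Of 8 endothelial markers 2 were lower (median -0.48), with sums of 546 to 585 CPM against 759 to 769 CPM. Their part was not tested.

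In brown adipose the comparisons of transgenic with wild type mice called 1 member each. Adamts1 was lower with 1 copy (-1.16 ± 0.16, adjusted p = 0.0123), at 34.8 and 30.7 CPM against 63.1 and 82.0 CPM in wild type. It was the only call of 28 tested members, with 0 higher (all genes: 2.55% lower and 1.52% higher, 4.07% in all). That call was lost without brown 1-copy replicate 1 (adjusted p = 0.100) or brown 1-copy replicate 2 (adjusted p = 0.114). Without brown wild type replicate 2, the library with less muscle RNA, the log2 fold changes of Adamts2, Adamts12, Mmp11 and Mmp28 were -1.11, -0.77, 2.76 and 0.91. That fit leaves wild type with 1 library, so its calls are not read as results about the members. Mmp2 was lower with 2 copies (-1.09 ± 0.16, adjusted p = 0.0316), at 19.3 and 24.5 CPM against 47.7 and 46.4 CPM in wild type, again the only call of 28, with 0 higher (all genes: 0.82% lower and 0.47% higher, 1.29% in all). The Mmp2 call was lost in 5 of 6 fits that left out 1 library (adjusted p = 0.0526 to 0.124). Wild type brown libraries also held the muscle markers, summed to 1534 and 3818 CPM, and the part of muscle RNA was not tested.

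Between the doses both brown groups had muscle markers of 9 to 27.7 CPM. Mmp2 was lower with 2 copies than with 1 copy (-0.83 ± 0.16, adjusted p = 0.0477), with 1-copy libraries at 44.0 and 34.9 CPM. Adamts1 was higher with 2 copies (0.81 ± 0.16, adjusted p = 0.0479), at 52.7 and 61.3 CPM. These were the 2 calls of 28 members, 1 in each direction (all genes: 0.708% lower and 1.24% higher, 1.95% in all). Groups did not overlap for either gene, which adds no support, as both genes were picked by their call. The Mmp2 call was lost in 4 of 6 fits that left out 1 library (adjusted p = 0.0994 to 0.267), and the Adamts1 call in 4 of 6 fits that left out 1 library (adjusted p = 0.0848 to 0.341).

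Mmp11 had the highest estimate of the 28 members in brown adipose with 1 copy, without a call. It stood at 8.77 and 7.30 CPM with 1 copy, above 1.18 and 2.98 CPM in wild type and 3.43 and 1.94 CPM with 2 copies. Its difference with 1 copy was 1.88 ± 0.45 (adjusted p = 0.0629; 0.00685 with DESeq2 and 0.0191 when all 12 libraries were fitted together) and between 2 copies and 1 copy -1.57 ± 0.45 (adjusted p = 0.110). The 3 inhibitors tested in brown adipose, Timp2, Timp3 and Timp4, had log2 fold changes against wild type between -0.16 and 0.14, with SE from 0.27 to 0.62.

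**Figure D5:**
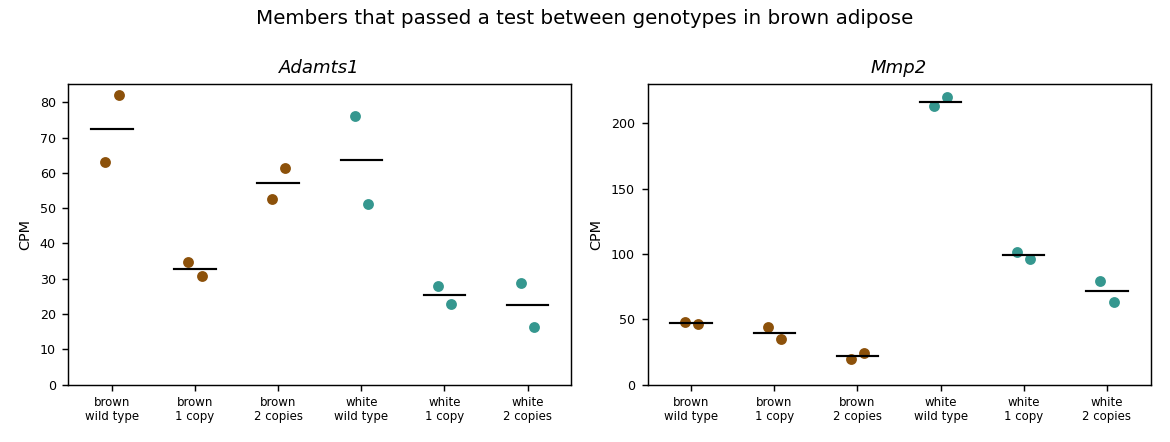
CPM of Adamts1 and Mmp2 in each library (points) by tissue and transgene copies, with the mean of the 2 libraries as a line. In brown adipose Adamts1 is lowest with 1 copy (34.8 and 30.7 CPM) and Mmp2 lowest with 2 copies (19.3 and 24.5 CPM).

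Whether the transgene groups differed from wild type by other amounts in brown than in white was tested with an interaction term. With 1 copy 8 of 37 members had a higher and 3 a lower change in brown than in white (all genes: 13.8% higher and 18.8% lower, 32.6% in all). With 2 copies 9 were higher and 4 lower (all genes: 20.6% and 21.7%, 42.2% in all). Mmp25 (-3.49 ± 0.49, adjusted p = 7.22e-04 and -4.16 ± 0.49, adjusted p = 1.45e-04), Adamts10 (-1.20 ± 0.19, adjusted p = 0.00148 and -1.47 ± 0.19, adjusted p = 2.52e-04) and Adamts6 (-1.69 ± 0.39, adjusted p = 0.00963 and -1.89 ± 0.39, adjusted p = 0.00353) were lower with both doses, having risen in white adipose. Mmp19 (1.30 ± 0.30, adjusted p = 0.00973 and 1.69 ± 0.30, adjusted p = 0.00171), Mmp28 (1.24 ± 0.26, adjusted p = 0.00598 and 1.81 ± 0.26, adjusted p = 4.56e-04) and Adamts15 (2.04 ± 0.27, adjusted p = 5.64e-04 and 1.19 ± 0.28, adjusted p = 0.00649) were higher with both, having fallen in white adipose. The doses share the wild type libraries, and the overlap of their calls was not counted for all genes.

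Genes that activate, guide or receive these proteases were read from lists. In the comparison of wild type tissues, 15 of 18 tested matrix substrates were lower in brown and 0 higher (median log2 fold change -2.37), among them Lum, a small collagen-binding proteoglycan (-2.60 ± 0.15, adjusted p = 6.61e-07), and Dcn (-1.89 ± 0.13, adjusted p = 1.78e-06). Procollagen processing genes gave 10 lower and 0 higher of 12 (median -1.79), with Bmp1, which removes the carboxy-terminal propeptide (-1.92 ± 0.13, adjusted p = 1.61e-06). ADAMTS-like proteins, which resemble ADAMTS but lack the protease domain, gave 5 lower and 1 higher of 7 (median -2.04), led by Thsd4 (-5.78 ± 0.39, adjusted p = 1.69e-06). The ADAM sheddases gave 6 lower and 2 higher of 12 (median -0.63), with Adam10 (-1.46 ± 0.12, adjusted p = 4.02e-06). Activation and pericellular control genes gave 7 lower and 4 higher of 17 (median -0.33). They included Reck, a membrane-bound MMP inhibitor (-1.75 ± 0.20, adjusted p = 4.56e-05), and the plasminogen activator Plat (-2.36 ± 0.17, adjusted p = 2.02e-06), both lower in brown. The shares called in the ADAM and pericellular lists were near the 61.1% of all genes called.

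In white adipose, with 1 and 2 copies against wild type, the matrix substrates gave 15 and 14 lower and 0 higher of 18 (medians -1.15 and -1.30). Of all genes 23.6% and 28.9% were lower and 28.4% and 32.1% higher, 52% and 61% in all, beside which the counts of these lists are to be read. Elastin (Eln) changed by -1.60 ± 0.10 and -1.40 ± 0.10 on the log2 scale (adjusted p = 7.95e-05 and 1.04e-04). Procollagen processing genes gave 10 lower and 0 higher of 12 with each dose (medians -1.09 and -1.37), including Pcolce2 (-1.16 ± 0.12, adjusted p = 6.70e-04 and -1.58 ± 0.12, adjusted p = 1.42e-04). ADAMTS-like proteins gave 4 lower and 0 higher of 7 with each dose (medians -0.68 and -1.17). Control genes gave 12 lower and 2 higher of 17 with each dose (medians -0.78 and -0.89). Plat fell (-1.35 ± 0.13, adjusted p = 5.04e-04 and -1.31 ± 0.13, adjusted p = 3.38e-04), and Cd44, a hyaluronan receptor also carried by lymphocytes, rose (1.12 ± 0.15, adjusted p = 0.00210 and 1.47 ± 0.15, adjusted p = 4.65e-04). ADAM sheddases went both ways, with 3 and 4 lower and 5 and 5 higher of 12 (medians -0.09 and 0.07), and Adam19 rose (1.24 ± 0.13, adjusted p = 7.42e-04 and 1.43 ± 0.13, adjusted p = 2.72e-04).

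In brown adipose the same lists held 3 calls in all over the 3 genotype comparisons. With 2 copies against wild type Lum fell (-0.97 ± 0.18, adjusted p = 0.0473), 1 of 16 matrix substrates (all genes: 0.82% lower and 0.47% higher, 1.29% in all). With 2 copies against 1 copy Plau, the urokinase that turns plasminogen into plasmin, was lower (-1.71 ± 0.23, adjusted p = 0.0198), and Bsg, an inducer of MMPs, was higher (1.17 ± 0.18, adjusted p = 0.0296), 2 of 17 control genes. Of all genes 0.708% were lower and 1.24% higher, 1.95% in all. Whether these list calls hold without 1 library was not tested.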

How the data were processed

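The deposited table held whole-number read counts per gene symbol for 12 mouse libraries; every sample column was used. Per the submitters' processing notes the authors used STAR and featureCounts (Subread) with mm10; versions, gene annotation and strand setting are not given in the sources used here. Per the labels' protocols the libraries came from a stranded mRNA kit. The files give no gene lengths. The members, gene lists and tests were chosen with earlier results of these data known.

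Counts were tested with edgeR 4.0.16 (limma 3.58.1, R 4.3.3): TMM scaling, filterByExpr, robust quasi-likelihood fit, two-sided F test, Benjamini-Hochberg adjustment over all genes tested, threshold 0.05. Genotypes were compared in 6 brown or 6 white libraries (3 residual degrees of freedom, 13414 and 15287 genes), tissues and interactions in all 12 (6 degrees of freedom, 15559 genes). SE is the absolute log2 fold change divided by the square root of F. Biological variation (common coefficient) was 0.148, 0.159 and 0.155. Libraries of a group correlated at 0.983 to 0.993 over log2 CPM and differed beyond sampling noise (chi-square per degree of freedom 9.23 to 39.7), so each was counted as 1 sample; this does not show that they came from separate mice. On simulated counts for the comparison of white adipose with 2 copies against wild type (15287 genes) the test recovered 61% of genes changed by 1 log2 unit and 88% of those changed by 2. In brown adipose (2 copies against wild type, 13414 genes) it recovered 55% and 87%. Between wild type white and brown adipose (15559 genes) it recovered 55% and 83%. False calls among unchanged genes numbered 12 in white, 18 in brown and 5 between the tissues. In white and in brown they were a larger share of the simulated calls than the threshold of 0.05, from 1 simulation each. Only 100 genes were changed at each size, whereas 61% of all genes were called in the measured white comparison. The simulated rates need not carry over to such data.

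Every member that passed in any comparison was named with its libraries' values; other lists were read by at most 3 genes per comparison, those with the smallest adjusted p. Alternatives were median-of-ratios scaling, DESeq2 1.42.0, no filter, another set of libraries in the fit and each library left out. Bounds against groups without reads set that group at 3 counts and take the reads of the higher group as exact. They cover only the counting error of the group without reads. Gene positions and overlaps came from GENCODE M21 (mm10), to which all 46 symbols matched, and promoter sequences from RefSeq. Tables and figures were made with Python 3.11.15.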

Additional observations from a re-analysis of the deposited data

Results flagged for a closer look

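For 24 results the change against wild type differed between brown and white adipose by the interaction test of edgeR's quasi-likelihood fit (brown change minus white change, log2, with the adjusted p). Both doses passed for 6 members, whose values stand in the account of the interaction above: Mmp25 (-3.49 and -4.16), Adamts6 (-1.69 and -1.89), Adamts10 (-1.20 and -1.47), Mmp19 (1.30 and 1.69), Mmp28 (1.24 and 1.81) and Adamts15 (2.04 and 1.19), with 1 and with 2 copies. All 6 passed in every fit that left out 1 library. In white adipose the lymphocyte markers rose with both doses and in brown adipose the muscle markers fell; their part was not tested.

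With 1 copy, Mmp14 (0.80 ± 0.18, adjusted p = 0.00746) and Mmp2 (0.87 ± 0.21, adjusted p = 0.0104), the paired collagen-degrading proteases, had a higher change in brown than in white and passed in every fit that left out 1 library. Timp2 (1.03 ± 0.33, adjusted p = 0.0410) lost its call in 8 of 12 fits that left out 1 library (adjusted p = 0.0536 to 0.106). Adamts16 (3.90 ± 1.14, adjusted p = 0.0274) lost it in 4 of 12 fits that left out 1 library (adjusted p = 0.0547 to 0.283) and Mmp13 (4.23 ± 1.45, adjusted p = 0.0473), which had at most 16 reads in a library, in 10 of 12 fits that left out 1 library (adjusted p = 0.0588 to 0.497).

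With 2 copies, Adamts5 (1.62 ± 0.36, adjusted p = 0.00588), Adamts9 (1.79 ± 0.34, adjusted p = 0.00256) and Adamts12 (1.47 ± 0.27, adjusted p = 0.00182), proteases of the proteoglycans and of COMP, passed in every fit that left out 1 library. Timp4 (2.59 ± 0.71, adjusted p = 0.0208) lost its call in 5 of 12 fits that left out 1 library (adjusted p = 0.0521 to 0.0701), Timp3 (1.21 ± 0.36, adjusted p = 0.0236) in 6 of 12 fits that left out 1 library (adjusted p = 0.0511 to 0.0714) and Adamts1 (1.15 ± 0.39, adjusted p = 0.0390) in 9 of 12 fits that left out 1 library (adjusted p = 0.0504 to 0.128). The fitted value of Adamts13 was -10.16 (adjusted p = 0.0317). It depends on the prior count, since wild type white and 2-copy brown libraries had no reads, and it was lost without brown wild type replicate 2 (adjusted p = 1.000), white 2-copy replicate 1 (adjusted p = 0.0584) or white 2-copy replicate 2 (adjusted p = 0.0627).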

How the results depend on the processing

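Of 200 calls of single members, 147 passed under every alternative; over 2817 alternative values 214 fell short of the threshold and 0 changed sign. The count of called members moved by over 1.5 times in few settings other than leaving out a library. With 1 copy in brown adipose it was 2 rather than 1 with DESeq2, without the filter and in the fit of all 12 libraries, Mmp11 being the added call. Calls among all genes then numbered 1044, 741 and 1004, against 546 in the test used above. In white adipose between the doses it was 9 with DESeq2, 1 with median-of-ratios scaling (Mmp28 at adjusted p = 0.0503) and 1 in the fit of all 12 libraries (Timp4 at 0.0967). Here calls among all genes numbered 1230, 247 and 780, against 285. Leaving out 1 library each, the counts in brown adipose ranged from 0 to 5 with 1 copy, 0 to 1 with 2 copies and 0 to 3 between the doses. In white adipose they ranged from 17 to 25, 20 to 24 and 0 to 2. Between the tissues they ranged from 21 to 26 in wild type, 21 to 29 with 1 copy, 25 to 33 with 2 copies and 33 to 34 over the genotypes, and for the interactions from 8 to 12 and 9 to 16. Leaving out 1 library leaves a group with 1 sample, which is then assumed to vary like the others. Of single calls, Adamts1 between the doses in brown adipose (0.131) and Mmp11 with 1 copy in white adipose (0.143) were lost in the fit of all 12 libraries. The cause was not tested. Median-of-ratios scaling moved the median of all genes from -0.24 to -0.13 between tissues with 1 copy, and from 0.01 to 0.15 and -0.03 to 0.09 for the interactions. No paired analysis was possible because the labels give library numbers only, and replicate numbers were given in accession order. With 2 libraries per group the spread rests on few degrees of freedom, and members below about 1 CPM have few reads.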
